A study of Mus musculus with 6 samples.

Results

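Tetraspanins are small membrane proteins that cross the membrane several times and gather integrins, growth factor ligands, proteases and each other into patches of the cell surface or of endosomes. The genes described here are those whose symbol on the array platform is Tspan followed by a number, or Cd9, Cd37, Cd53, Cd63, Cd81, Cd82 or Cd151. Members were chosen by symbol, which gave 26 of the 22180 genes with a probe set naming them alone. Where a gene had more than 1 probe set, it was selected on its mean value across the 6 arrays, the brightest being used, and this arose for Cd9 only. Tspan7 was not analysed here. The family was taken up with the fall of Tspan1 already known, so the values of that gene are given as a description without a test, and the count of called genes is given with and without it.

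RNA came from mouse mammary material in 2 groups of 3 arrays. The wild-type group held luminal epithelial cells of Rosa26-Stop-YFP females, sorted as YFP+ cells 10 to 14 days after intraductal delivery of Ad-K8-Cre, an adenovirus in which a keratin 8 promoter drives Cre recombinase (mice 1, 2 and 4). The tumor group held mammary tumors of Trp53L/L;Brca1L/L females, which grew over several months following the same virus (tumors 23, 24 and 25), and the labels call them null for both genes. Both groups therefore received the virus and Cre, and Cre was restricted to cells in which the keratin 8 promoter was active. The labels describe no sorting for the tumors, so sorted cells were compared with tumor pieces that can hold stroma, vessels, muscle and leukocytes. In such pieces, fewer cells of a type and less RNA per cell cannot be told apart. Separate mice are named for the wild-type samples but not for the tumors, so p-values may in part measure spread within 1 animal.

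In epithelia, tetraspanins are best known for steering laminin-binding integrins and for loading vesicles that leave the cell. Members of the TspanC8 subgroup escort the protease Adam10 to the surface, others belong to leukocytes, and Cd82 is known as a suppressor of metastasis. Tspan1, Tspan13 and Tspan8 have mostly been studied in epithelia and carcinomas, and in these data all had lower means in the tumors. The 250 bases before their annotated start sites (RefSeq, GRCm38.p6) are therefore shown, 5′ to 3′ on the strand of the gene, with capitals marking any match to the motifs searched. They lie at chr4:116167599-116167848 on the minus strand for Tspan1, chr12:36042479-36042728 on the minus strand for Tspan13 and chr10:115817034-115817283 on the plus strand for Tspan8.
Tspan1: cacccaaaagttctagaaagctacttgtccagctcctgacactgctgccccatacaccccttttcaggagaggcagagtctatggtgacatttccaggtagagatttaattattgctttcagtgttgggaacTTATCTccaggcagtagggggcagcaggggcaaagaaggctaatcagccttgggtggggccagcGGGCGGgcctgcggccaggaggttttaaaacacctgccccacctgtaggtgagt
Tspan13: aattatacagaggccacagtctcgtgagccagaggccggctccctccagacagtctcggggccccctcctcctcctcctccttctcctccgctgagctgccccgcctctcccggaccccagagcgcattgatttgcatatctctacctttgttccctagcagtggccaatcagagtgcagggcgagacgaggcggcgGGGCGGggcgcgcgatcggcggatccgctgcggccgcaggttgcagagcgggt
Tspan8: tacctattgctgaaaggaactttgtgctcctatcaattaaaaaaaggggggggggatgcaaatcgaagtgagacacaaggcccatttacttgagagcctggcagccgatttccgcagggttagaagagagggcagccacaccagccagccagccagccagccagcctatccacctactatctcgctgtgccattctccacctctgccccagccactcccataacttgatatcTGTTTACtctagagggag

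These promoters differed in composition. That of Tspan13 was rich in CpG, with 21 CpG and 66.0% G or C, whereas those of Tspan1 and Tspan8 held 3 and 4 CpG, beside a median of 6 over 32841 windows of the same length. The motifs searched on both strands were TATAAA of core promoters, GGGCGG or GC box, AGGTCA known from nuclear receptors, TGTTTAC from forkhead factors, AGATAA from the GATA family, and TGANTCA from the AP-1 factors. The GC box began 54 bases before the start of Tspan1 and 53 bases before that of Tspan13. In Tspan1 a GATA match lay on the opposite strand, and in Tspan8 a forkhead match began 18 bases before the start. Over all windows, 32.7% held the GC box, 9.99% the GATA letters and 3.17% the forkhead letters, and a match is a description of letters, not of binding. Of the family, 25 genes had at least 1 window, and 15 of their 35 windows held the GC box.

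The deposited values were log2 RMA values, so differences are in log2 units, and levels of different genes are not set against each other because probes differ in brightness. Medians over all probe sets lay between 3.25 and 3.59 on the 6 arrays, and read depth does not apply. A mark for background was set per array at the 95th percentile of 1105 olfactory receptor genes, which lay at 3.70 to 3.86 on wild-type arrays and 3.24 to 3.45 on tumor arrays. Brca1 measured 2.93 ± 0.11 on wild-type arrays and 3.88 ± 0.19 on tumor arrays (SD, n = 3), and since the position of its probes relative to the deleted part is unknown, it checks nothing about the labels. Krt8 and Krt18, the keratins that define luminal cells, measured 10.31 or more on every wild-type array, and at least 7.76 and 7.47 on the tumors. The fibroblast gene Dcn (10.10 to 11.11) and the adipocyte and vessel gene Fabp4 (8.61 to 10.84) were also well above the mark on the sorted wild-type arrays. Other markers of these lists were dimmer there. Of the adipocyte markers, Adipoq, Cidec and Lep lay under the mark on all 3 wild-type arrays and Plin1 on 2. Of the fibroblast markers, Pdgfrb lay under it on 2, Pdgfra and Lum on 1, and Col1a1, Col1a2, Col3a1 and Thy1 on none. Of the basal markers, Krt14 measured 8.48 to 9.27 and Krt17 7.59 to 9.29, while Oxtr lay under the mark on 3 and Trp63 on 1. Of the endothelial markers, Cdh5 measured 5.54 to 7.34 and Pecam1 5.70 to 7.10, while Esam and Tek lay under it on 3 and Emcn on 2. Of the macrophage markers, Ptprc, Cd68, C1qa and C1qb lay under it on none, Csf1r on 1, and Adgre1, C1qc, Fcgr1, Itgam and Mrc1 on 3.

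The tetraspanin genes did not move as a block. Tspan13 and Cd82 fell in the tumors, Tspan2 rose, and Tspan1 was lower by far more than its spread between arrays; the other 22 did not pass the test. In the limma fit over all 22180 genes, 4 of the 26 had a Benjamini-Hochberg adjusted p under 0.05 (15.4%), 1 higher and 3 lower, beside 3.91% of all genes. Without Tspan1 these were 3 of 25, 1 higher and 2 lower, beside 2.52% of all genes called higher and 1.39% called lower. Of all genes, 7446 lay under the background mark on all 6 arrays, beside 2 of the members. With only the 7726 genes of a mean of at least 5 tested, limma called 915 genes and 5 of 20 members, Tspan1 among them. An unadjusted p under 0.05 in limma was reached by 7 of the 26 members, and by 6 of 25 without Tspan1. Over all genes it was reached by 5850 of 22180, and counts at that level given below are descriptions. Since this comparison was known when the family was chosen, nothing is read from these shares. Means were higher in tumors for 13 members and lower for 13. The median difference was 0.02 over the 26 and -0.12 over all genes, and 18 of the 26 differed by less than 1 log2 unit. The order of these medians was reversed once dim genes were left out. Among the 7726 genes of a mean of at least 5, the median was -0.04 over 20 members and 0.32 over all genes tested. Among the brighter 11090 genes it was 0.04 over 24 members and 0.27 over all tested. The family is therefore not shown to lie above other expressed genes.

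Levels of the 2 groups did not overlap for 8 of the 26 genes, 7 lower and 1 higher in tumors (7 of 25 without Tspan1), beside 36.4% of all genes (22.4% lower and 14.0% higher). All 6 arrays lay above the background mark for 22 members (84.6%), beside 43.9% of all genes. Tspan10, which is among the 7 lower genes without overlap, and Tspan32 lay under it on all 6. How calls divide between higher and lower depends on scaling: centring on 12 housekeeping genes called 8890 genes, 5.52% of them higher instead of 64.5%, and 9 tetraspanins, all lower. That scaling moved the median difference of all genes to -0.84. After repeated quantile normalization and cyclic loess this median was -0.01 and 0.03, and 55.7% and 60.7% of the called genes were higher.

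**Figure D1:**
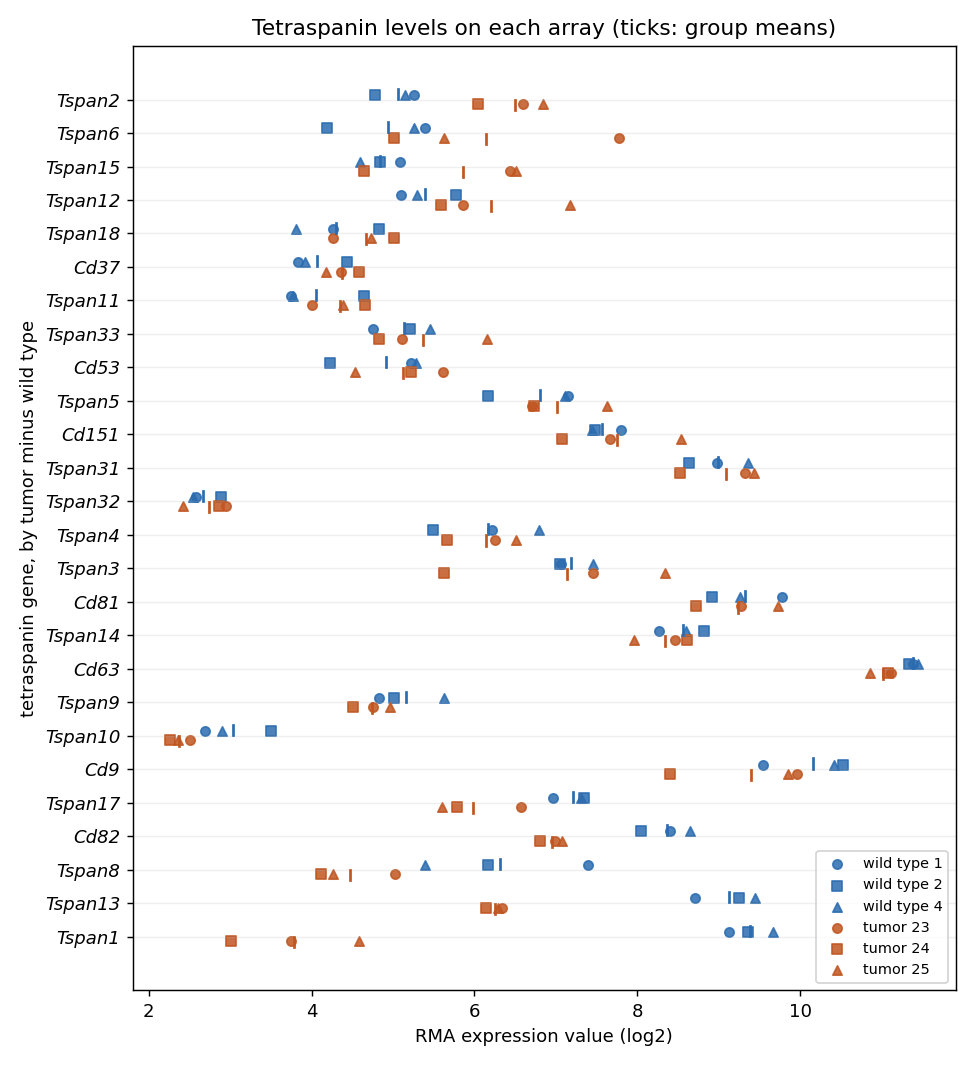
RMA value (log2, horizontal axis) of each of the 26 tetraspanin genes (rows, ordered by tumor minus wild type) on the 3 wild-type arrays (blue) and the 3 tumor arrays (orange); marker shape gives the array and vertical ticks the group means. Tspan1 and Tspan13 at the bottom show tumor and wild-type points far apart, Tspan2 at the top lies higher in all 3 tumors, and most genes between overlap.

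Tspan1 (probe set 17428589), also known as NET-1 and found in secretory and gut-like epithelia, measured 9.13, 9.36 and 9.67 in wild-type mice 1, 2 and 4, and 3.75, 3.01 and 4.58 in tumors 23, 24 and 25. The wild-type values lay close together, every tumor lay more than 4 log2 units below them, and tumor 24, at 3.01, lay under its background mark. The group means were 9.39 ± 0.27 and 3.78 ± 0.79 (SD, n = 3), a difference of -5.61. As an RMA ratio this is 48.7-fold lower, and its size is not settled where a tumor value is not told from background. When single arrays were left out, the difference stayed between -6.01 and -5.22, which is a description and no test, since the fall was already known.

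Tspan13 (probe set 17280749), also known as NET-6, measured 8.70, 9.24 and 9.45 on the wild-type arrays and 6.34, 6.14 and 6.29 in tumors 23, 24 and 25. The tumors were nearly alike, and even the lowest wild-type array was over 2 log2 units above the highest tumor. The fall was 2.87 ± 0.23 log2 units (SE), which is 7.33-fold, and limma gave it an adjusted p of 0.0073. It passed in each of the 6 sets with 1 array left out and under each of the 9 other settings. In tumor 24 alone, a choice made after seeing the data, it differed from the wild-type mean by -2.99. All tumor values stayed above the background mark, so this loss was partial on the scale of the arrays.

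Tspan8 (probe set 17237412), a cell surface antigen of gut carcinomas that in the mouse mammary gland also marks a set of stem cells, measured 7.39, 6.17 and 5.39 on the wild-type arrays and 5.02, 4.12 and 4.26 in the tumors. The groups did not overlap, but wild-type mice spread widely, from 5.39 to 7.39, and mouse 4 lay near tumor 23. The difference of -1.85 ± 0.53 (SE) did not pass (adjusted p of 0.10 in limma). It passed under 2 of the 9 other settings. These were the filter at a mean of at least 5 (adjusted p of 0.041 in limma) and housekeeping centring (0.0069). It passed in 0 of the 6 sets with 1 array left out.

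Luminal markers were measured on the same arrays, and they did not all go one way. The 4 called genes among 5 measured hormone-sensing luminal markers all fell, Foxa1 by 3.07, the estrogen receptor Esr1 by 2.67, the progesterone receptor Pgr by 2.60 and Cited1 by 1.69. Pgr lay under the background mark in all 3 tumors and Foxa1 in tumor 23, so the sizes of these 2 falls are not settled. The mean of that list was 6.08 to 6.47 on wild-type arrays and 3.85 to 4.34 in tumors. Of 11 general luminal markers none passed in limma (8 at an unadjusted p under 0.05), with a list median of -1.19. Their mean lay at 8.49 to 9.18 on wild-type arrays and at 8.04, 6.80 and 7.30 in tumors 23, 24 and 25. Krt19 differed by -4.36, with tumor 25 under the mark, and Krt18 by -2.09, both without passing. Of 6 luminal progenitor markers, Ltf (by 3.54) and Aldh1a3 (by 2.72) fell, and Kit (by 2.42) and Elf5 (by 1.90) rose. Elf5 lay under the mark on all 3 wild-type arrays and Aldh1a3 in 1 tumor. The part of these shifts in the values of Tspan1, Tspan13 and Tspan8 was not tested.

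**Figure D2:**
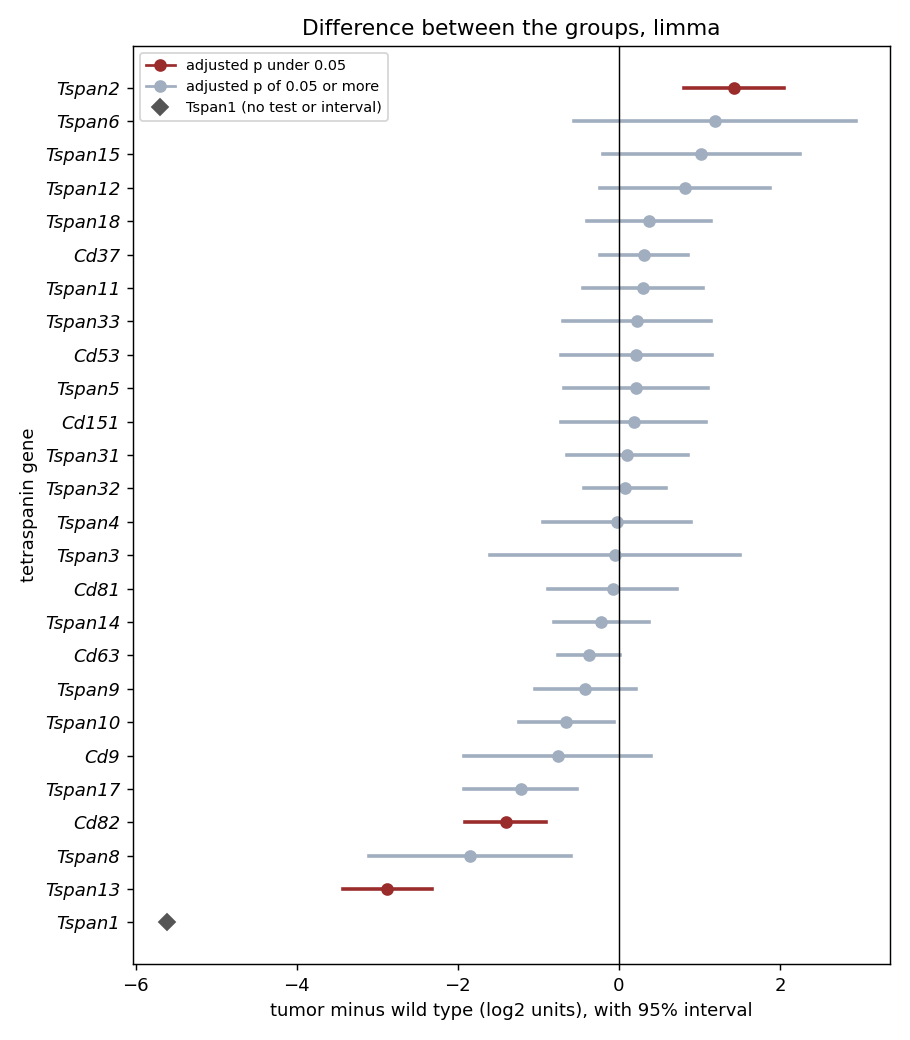
Tumor minus wild type in log2 units (horizontal axis) for each tetraspanin gene, with the 95% interval of the limma fit; red genes had an adjusted p under 0.05, and Tspan1 is shown as a point without interval or test. Tspan13 (-2.87), Cd82 (-1.41) and Tspan2 (1.43) stand clear of 0, and most other intervals span it.

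Among the tetraspanins with many partners at the surface of most cells, only Cd82 passed the test. Cd82 (probe set 17388454), which restrains signalling by integrins and by growth factor receptors, measured 8.40, 8.05 and 8.64 on the wild-type arrays and 6.99, 6.81 and 7.08 in the tumors. Both groups were tight and about 1 log2 unit separated the nearest arrays. The fall was 1.41 ± 0.21 log2 units (SE), which is 2.65-fold, and limma gave it an adjusted p of 0.026. The call was lost without wild-type mouse 1 (0.088), wild-type mouse 4 (0.091), tumor 23 (0.072) or tumor 25 (0.059), while the difference stayed between -1.56 and -1.27.

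Cd9, which partners with integrins and with the precursor of the growth factor Hbegf, measured 9.54, 10.53 and 10.42 on wild-type arrays and 9.96, 8.40 and 9.85 in tumors. Tumor 24 alone lay clearly below the wild-type range. The difference was -0.76 ± 0.48 (SE; adjusted p of 0.34 in limma), and it was -0.26 without tumor 24. Its dimmer probe set, not used for the gene, measured 3.81, 3.84 and 4.04 on wild-type arrays and 3.27, 3.24 and 3.12 in tumors, close to background (mean of 3.55, beside 9.78 for the brighter one).

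Cd81, a close relative of Cd9 that also serves in the B cell coreceptor, measured 9.78, 8.92 and 9.27 on wild-type arrays and 9.28, 8.72 and 9.73 in tumors. The ranges were nearly the same, and the 95% interval of the difference ran from -0.88 to 0.72. Cd151, the partner of laminin-binding integrins that anchor epithelia to the basement membrane, measured 7.80, 7.48 and 7.44 on wild-type arrays and 7.66, 7.07 and 8.54 in tumors. Its highest and lowest values were both tumors, with an interval from -0.71 to 1.08. The related Tspan11 was 0.29 ± 0.31 (SE) higher, and lay near background with values of 3.75 to 4.66.

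Tspan2 was the one tetraspanin that passed upward. This gene (probe set 17401072), a relative of Cd9 and Cd81 best known from cells that make myelin, measured 5.26, 4.78 and 5.15 on the wild-type arrays and 6.59, 6.05 and 6.84 in the tumors. Every tumor lay above every wild-type array. The rise was 1.43 ± 0.26 log2 units (SE), which is 2.69-fold, and limma gave it an adjusted p of 0.041. It was lost without wild-type mouse 1 (0.10), 2 (0.11) or 4 (0.11) and without tumor 23 (0.11) or 25 (0.094). A further round of quantile normalization (1.20, 0.062), centring on housekeeping genes (0.71, 0.11) and a trended robust prior (0.052) each ended the call too.

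Macrophage markers were higher in the same tumors. Of 10, 6 rose, among them C1qa (4.09), C1qb (4.03), Csf1r (2.67) and Cd68 (1.78), and the mean of the list was 3.70 to 4.30 on wild-type arrays and 5.85 to 6.55 in tumors. Of 8 fibroblast markers, Pdgfrb rose by 2.56, Dcn differed the other way by -2.76 without passing (adjusted p of 0.052 in limma), and the list mean lay at 5.22 to 5.69 on wild-type arrays and at 6.26, 6.83 and 5.33 in tumors 23, 24 and 25. Tspan2 was lowest of the tumors in tumor 24. Of the fibroblast markers, Col1a1, Col1a2, Col3a1, Pdgfrb and Thy1 were highest of the tumors there, Pdgfra was lowest, and Dcn and Lum lay between. Whether other cell types contributed to the rise of Tspan2 was not tested.

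The other tetraspanins known from vessels or platelets did not pass. Tspan12, a coactivator of the Norrin receptor Fzd4 in vessels, measured 5.10, 5.78 and 5.30 on wild-type arrays and 5.86, 5.59 and 7.18 in tumors, so tumor 25 stood above the rest (0.82 ± 0.44, SE, adjusted p of 0.27 in limma). The mean of 8 endothelial markers was also highest in tumor 25, at 5.35, beside 4.33 to 4.86 on wild-type arrays and 4.16 and 4.39 in tumors 23 and 24. None of those 8 passed in limma, nor did any at an unadjusted p under 0.05; Kdr differed by 0.69 and Cdh5 by -0.43. The part of vessel cells in the Tspan12 value was not tested. Of the Norrin receptor list, none of 4 passed (0 at an unadjusted p under 0.05 in limma), with Lrp5 0.81 and Lrp6 0.72 higher and the ligand Ndp near background. Tspan18, known from endothelial calcium entry, differed by 0.37 ± 0.32 (SE), and Tspan9, known from platelets, by -0.42 ± 0.26.

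None of the 6 TspanC8 genes passed. An unadjusted p under 0.05 in limma was held by 2, Tspan17 and Tspan10, beside 5850 of all 22180 genes. The 6 divided evenly by direction of the mean. Tspan17 measured 6.97, 7.35 and 7.30 on wild-type arrays and 6.57, 5.79 and 5.60 in tumors. The groups did not overlap, and the difference was -1.22 ± 0.29 (SE; adjusted p of 0.072 in limma). Tspan15, which directs Adam10 towards cadherins, measured 5.08, 4.84 and 4.59 on wild-type arrays and 6.43, 4.64 and 6.51 in tumors. Tumors 23 and 25 lay above all wild-type arrays and tumor 24 among them. The difference was 1.02 ± 0.51 (SE; adjusted p of 0.25 in limma), and without tumor 24 it was 1.63 and passed (0.025).

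Skeletal muscle markers were also lowest in tumor 24 among the tumors, with a list mean of 9.23 in tumor 23, 6.44 in tumor 25 and 3.80 in tumor 24, beside 3.62 to 3.71 on wild-type arrays. All 8 had higher means and none passed (3 at an unadjusted p under 0.05 in limma), with Atp2a1 at 4.07 and Mylpf at 3.49 higher. The part of muscle RNA in the Tspan15 values was not tested. Tspan14 measured 8.27, 8.82 and 8.60 on wild-type arrays and 8.46, 8.61 and 7.97 in tumors, with overlapping groups. Groups overlapped as well for Tspan5 (6.17 to 7.15 on wild-type arrays and 6.70 to 7.62 in tumors) and Tspan33 (4.76 to 5.45 and 4.83 to 6.16), a gene of the erythroid and B cell lineages. Tspan10 of pigmented eye cells lay under the background mark on all 6 arrays. Adam10 itself differed by -0.96 ± 0.36 (SE) without passing (adjusted p of 0.16 in limma). Of Adam10 and 11 of its substrates none passed in limma (2 at an unadjusted p under 0.05), and Notch2, a receptor cleaved by Adam10, measured 1.21 higher.

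Cd63, the tetraspanin of late endosomes and of secreted vesicles, measured 11.39, 11.34 and 11.45 on wild-type arrays and 11.11, 11.09 and 10.86 in tumors. The arrays of each group were close together, and the groups did not overlap. The difference was nevertheless small, at -0.37 ± 0.16 (SE; adjusted p of 0.20 in limma).

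Tspan6 and Tspan3 varied among tumors more than between the groups. Tspan6 measured 5.39, 4.19 and 5.25 on wild-type arrays and 7.77, 5.01 and 5.63 in tumors. Tumor 23 stood more than 2 log2 units above the others, and the difference of 1.19 ± 0.73 (SE; adjusted p of 0.32 in limma) shrank to 0.38 without it. Tspan3 measured 7.07, 7.05 and 7.45 on wild-type arrays and 7.46, 5.63 and 8.34 in tumors. Tumor 24 was below and tumor 25 above every wild-type array, and the mean difference was -0.05 ± 0.65 (SE). Of 14 genes of vesicle formation and release none passed in limma (2 at an unadjusted p under 0.05), with differences of -1.45 for Rab27b and -0.73 for Vps4a, and a list median of 0.19.

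No leukocyte tetraspanin passed the test. Cd53, found on most leukocytes, measured 5.22, 4.23 and 5.28 on wild-type arrays and 5.61, 5.22 and 4.54 in tumors. The groups overlapped almost fully, and the 95% interval of the difference ran from -0.72 to 1.15. Cd37, of mature lymphocytes and antigen-presenting cells, was between 3.84 and 4.43 on wild-type arrays and between 4.18 and 4.58 in tumors, with an interval from -0.23 to 0.85. Tspan32, a blood cell gene, was under the background mark on all arrays. None of the 3 passed in limma, nor did any at an unadjusted p under 0.05.

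Beside them, Csf1r of macrophages measured 4.01, 4.37 and 3.30 on wild-type arrays and 6.79, 6.58 and 6.33 in tumors, and the general leukocyte gene Ptprc was 1.63 ± 0.60 (SE) higher without passing. Whether the change of Cd53 differs from that of these genes was not tested. The mean of 5 B cell markers was 2.66 to 3.05 over the arrays, under the mark, and none passed (0 at an unadjusted p under 0.05 in limma); Blk differed by -0.40 and Pax5 by -0.36. Of 7 T and NK cell markers none passed (1 at an unadjusted p under 0.05 in limma), with differences of -0.92 for Nkg7 and 0.73 for Cd3g.

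**Figure D3:**
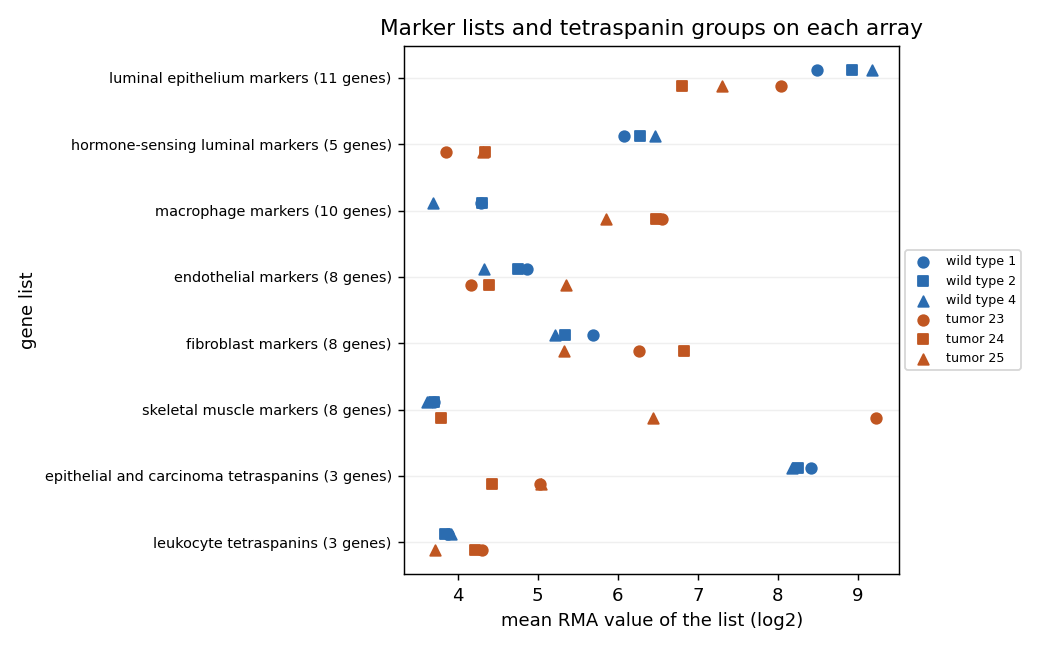
Mean RMA value (log2, horizontal axis) of 6 marker lists and 2 groups of tetraspanins (rows, with the number of measured genes) on each wild-type (blue) and tumor (orange) array. The row of epithelial tetraspanins (8.17 to 8.41 against 4.42 to 5.05) includes Tspan1, whose fall was known, and nothing is read from it; macrophage markers are higher in all 3 tumors, and muscle markers are high in tumors 23 and 25 only.

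The remaining members overlapped between groups. Tspan31, which lies beside Cdk4 in an amplified region of human sarcomas, measured 8.98, 8.64 and 9.36 on wild-type arrays and 9.32, 8.52 and 9.43 in tumors. Its difference was 0.10 ± 0.31 (SE), and no array stood apart. Tspan4, a component of the retraction fibre vesicles called migrasomes, had a 95% interval from -0.95 to 0.90. Of the tetraspanins that carry other names, Upk1a, Upk1b, Prph2 and Rom1, none passed (0 at an unadjusted p under 0.05 in limma), with differences of 1.12 for Rom1 and -0.76 for Upk1b.

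The tumors differed from each other in the tetraspanins. The median of each tumor's values against the wild-type means came to -0.04 for tumor 23, -0.39 for tumor 24 and 0.22 for tumor 25, beside -0.12, -0.14 and -0.11 over all genes. Tumor 24 was the lowest of the 3 tumors for 17 of the 26 genes (65.4%), beside 39.0% of all genes, and tumor 25 the highest for 13, beside 36.0% of all genes. Tspan1, Tspan13, Tspan8, Cd82, Tspan17, Cd63 and Tspan10 were below every wild-type array in all 3 tumors. Tspan3, Tspan6 and Tspan15 had an SD over 1 between tumors, which held for 11.5% of members and 5.30% of all genes. The SD between tumors exceeded that between wild-type arrays for 15 members (57.7%), beside 51.5% of all genes, and the median SD was 0.49 between tumors and 0.36 between wild-type arrays.

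**Figure D4:**
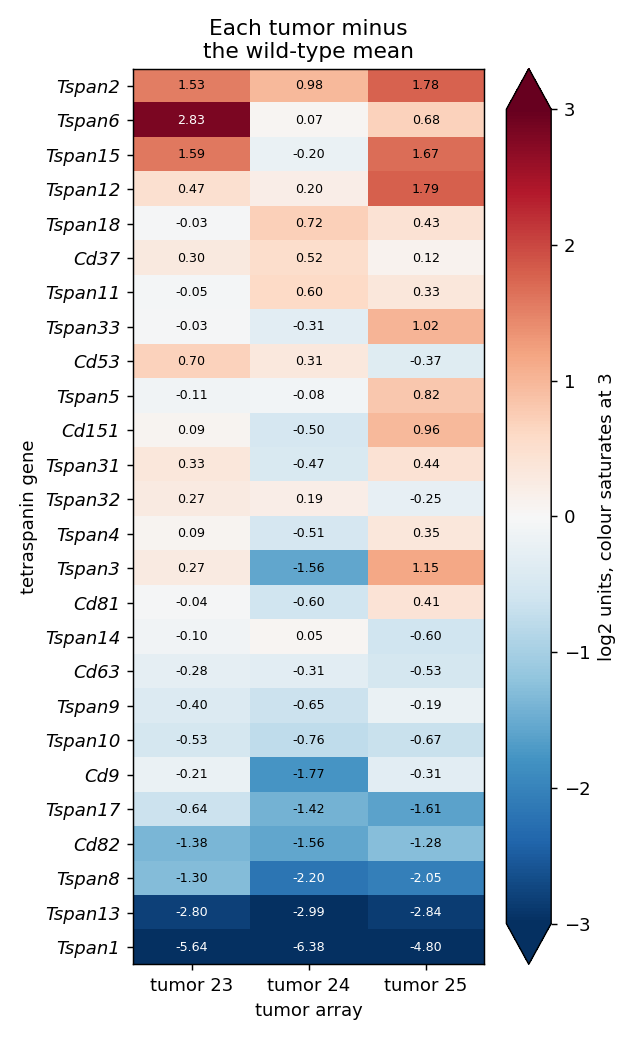
Each tumor's RMA value minus the mean of the 3 wild-type arrays, in log2 units, for the 26 tetraspanin genes (rows); red is higher and blue lower than wild type, and the colour saturates at 3 units. Tspan13, Cd82 and Tspan1 are blue in all 3 columns, Tspan6 is highest in tumor 23 (2.83), and Cd9 (-1.77) and Tspan3 (-1.56) are lowest in tumor 24.

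Partners of tetraspanins were described from a list of integrins, ligands and other binding proteins. Of the 16 measured none passed in limma (3 at an unadjusted p under 0.05), 10 had higher and 6 lower means, and the median difference was 0.08. Hbegf, the growth factor whose precursor binds Cd9, measured 7.01, 7.52 and 7.45 on wild-type arrays and 6.15, 4.99 and 6.29 in tumors. All tumors were lower, and the difference was -1.52 ± 0.37 (SE; adjusted p of 0.077 in limma). Pi4k2a, a lipid kinase found with tetraspanins, was 1.31 ± 0.46 (SE) higher without passing. The laminin-binding integrin chains Itga3 (0.07 ± 0.22), Itga6 (-0.70 ± 0.32) and Itgb4 (0.50 ± 0.36, all SE) did not pass either.

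Of the lists not yet named, Myh11 was the 1 of 7 basal and myoepithelial markers that passed, and it fell by 1.40. Of 5 adipocyte markers none passed (2 at an unadjusted p under 0.05 in limma), with differences of -2.87 for Fabp4 and -0.54 for Plin1. Of 12 housekeeping genes Gapdh rose by 1.08 and 11 did not pass, with a list median of 0.98. The centring described above subtracts the mean of these genes on each array.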

How the data were processed

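Per the labels, a NuGEN kit amplified the RNA of 3 wild-type and 3 tumor samples, and biotin was the label. The authors deposited log2 values for every probe set. RMA and oligo are named per the submitters' processing notes, with the version of each not given in the sources used here. By design, RMA corrects background, normalizes quantiles and summarises probes, and compresses differences near background. The deposited arrays did not share 1 distribution, with medians of 3.25 to 3.59 and SDs of 1.96 to 2.16 over all probe sets. Scan dates and detection calls were not used here, so no batch was tested; precision is limited by how few arrays there are. Of 41345 probe sets, 23521 named 1 gene, 1814 several and 16010 none; 23328 were matched to RefSeq (GRCm38.p6) by Entrez identifier. No column was left unmapped (0).

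Differences are tumor minus wild type from limma 3.58.1 (R 4.3.3; lmFit, eBayes, two-sided, no covariate, no filter), with Benjamini-Hochberg adjustment over 22180 genes and a threshold of 0.05. The step was tested on simulated data in which 200 of 22180 genes were changed. It called 6% of changes of 1 log2 unit and 62% of changes of 2 log2 units. A member that did not pass is therefore not shown to be unchanged. Group errors are SD over 3 arrays, SE the moderated standard error. The members and lists were chosen with earlier results of these data known, and no list was tested as a set. Values on every array are given for Tspan1, called members, members with separate groups and a difference of at least 1 log2 unit, and the 5 with the highest means (Cd63, Cd9, Cd81, Tspan31 and Tspan14), a rule for naming and not a comparison of levels; others were added after their values were seen. From other lists, called genes (at most 4) or the 2 largest differences are named, and further genes were chosen after their values were seen. The mark for background was also chosen after the data were seen. Alternatives were 2 filters on dim genes, other uses of probe sets, 3 scalings, a trended robust prior, array weights, leaving out each array, and tumor 24 alone.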

Additional observations from a re-analysis of the deposited data

How the results depend on the processing

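No paired analysis was possible because the groups share no replicate number. Of the tetraspanins, 12 of 26 kept their direction in every alternative run, among them Tspan13, Cd82 and Tspan2. Tspan1 is counted in the 12, but its fall was known when the family was chosen, so nothing is read from that. Leaving out single arrays gave 72 to 1200 called genes (30 to 904 higher, 42 to 296 lower) and 2 to 5 tetraspanins (0 to 2 higher, 2 to 3 lower). Without wild-type mouse 1, 2 or 4 there were 138, 170 and 72 called genes, and without tumor 23, 24 or 25 there were 142, 1200 and 375. Array weights gave 1324 genes, 854 higher and 470 lower. Housekeeping centring gave 8890 genes, 8399 of them lower, and 9 tetraspanins lower and 0 higher (0 at an unadjusted p under 0.05 in limma). After quantile normalization again and with the trended robust prior 0 tetraspanins were called higher (1 each at an unadjusted p under 0.05 in limma). Tumor 24 alone, chosen after seeing the data, gave 0 genes and 0 tetraspanins in limma, with 3588 genes, 1 higher and 7 lower tetraspanins at an unadjusted p under 0.05. With 1 tumor, the wild-type arrays alone supply the spread and the tumor is assumed to vary like them, so these counts say nothing about stability.

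Members that did not pass changed sign as follows. Housekeeping centring gave Cd151 -0.54, Cd37 -0.41, Cd53 -0.51, Tspan11 -0.43, Tspan18 -0.35, Tspan31 -0.62, Tspan32 -0.65, Tspan33 -0.50 and Tspan5 -0.51. Quantile normalization again gave Cd151 -0.013, Tspan31 -0.033 and Tspan5 -0.037, and cyclic loess Cd151 -0.0040 and Tspan31 -0.022. Array weights gave Tspan3 0.12. Tumor 24 alone gave Cd151 -0.50, Tspan14 0.047, Tspan15 -0.20, Tspan31 -0.47, Tspan33 -0.31 and Tspan5 -0.080. Leaving out single arrays gave ranges across 0 for Cd151 (-0.21 to 0.53), Cd53 (-0.13 to 0.51), Cd81 (-0.32 to 0.18), Tspan3 (-0.65 to 0.71), Tspan31 (-0.077 to 0.39), Tspan32 (-0.027 to 0.23), Tspan33 (-0.17 to 0.49), Tspan4 (-0.36 to 0.29) and Tspan5 (-0.11 to 0.38). The cause of these changes was not tested beyond the alternatives' own construction.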
